A study of Mus musculus with 40 samples.

Results

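The 27 genes described here encode receptors for the inhibitory neurotransmitter GABA and the proteins that make, load, clear and degrade it, together with partners at the inhibitory synapse. They were chosen by name for these functions, with earlier results of these data known. All 27 were among the 43629 genes of the count table. By role they comprised 4 alpha subunits, 2 beta subunits and 5 gamma, delta, epsilon and theta subunits of the GABA-A receptor, 2 subunits of the GABA-B receptor, 3 genes of GABA synthesis and vesicle loading, 3 of GABA uptake and breakdown, 2 of the synaptic scaffold and adhesion, 2 chloride cotransporters, 2 trafficking adaptors of the GABARAP family and 2 genes of interneuron identity.

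GABA is made from glutamate by glutamic acid decarboxylase, is loaded into synaptic vesicles, and acts on chloride-permeable GABA-A receptors, which assemble from several subunits, and on GABA-B receptors, which couple to G proteins. Transporters on neurons and astrocytes end its action, and a transaminase degrades it. In the amygdala, a set of nuclei that process fear and social cues, local interneurons of the cortex-like basolateral nuclei and the largely GABAergic central nucleus both use this system.

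The libraries were made from RNA of the left amygdala of 10-week-old male Swiss Webster mice. CON mice grew up under conventional conditions, GF mice grew up germ-free, that is without microbes, and exGF mice were born germ-free and took up the microbes of the animal unit after weaning. GF and exGF mice shared germ-free breeding pairs, whereas the parents of CON mice were conventional. Naïve mice of each kind gave 4 libraries per group, each a pool of animals (2 to 3 per the labels, 2 per the methods), and mice that had been through a 3-chamber social interaction test (CON-SI, GF-SI and exGF-SI) gave 8, 12 and 8 libraries of 1 animal each. A comparison of social interaction with the naïve state therefore also sets single animals against pools, and the social encounter cannot be told apart from handling and a new arena. Library names here join the group with P and a number for pools (CON-P1) or S and a number for single animals after social interaction (CON-S3).

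The 40 libraries held between 7291810 and 19961958 counted reads. All markers on a list of 16 genes of amygdala nuclei were detected in at least 1 library of each group, and their summed level lay between 719.5 and 1103 CPM, which are reads of a gene scaled to a fixed library total. Of the pools, GF-P1 stood apart: its summed level of 12 striatal markers was 394.1 CPM against 154.1 to 237.4 CPM in the other 39 libraries, and that of 11 thalamic and hypothalamic markers was 40.08 CPM against 12.59 to 23.77 CPM. The gene Gm42418, which overlaps ribosomal RNA, took more than 5% of the counts in 5 libraries, namely the exGF pools P1 and P2, the CON pools P1 and P3 and the single animal exGF-S7. Each gene called in the mean response is given below with and without these 6 libraries. In bulk tissue, fewer cells of a type and less RNA per cell cannot be told apart.

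Levels of the 27 genes were compared on a scale of CPM per kilobase of exonic length (CPM per kb). Gabarapl1, an adaptor of vesicle trafficking and autophagy related to the GABA-A receptor-associated protein, was the most abundant at 261 ± 20.5 CPM per kb (SD, n = 40), followed by the obligate GABA-B receptor partners Gabbr2 at 87.6 ± 11.4 and Gabbr1 at 75.5 ± 7.62 CPM per kb. Gabarap itself stood at 57.0 ± 6.66 CPM per kb and Slc12a5, the chloride extruder KCC2 of mature neurons, at 48.6 ± 4.21 CPM per kb. The range of Gabarapl1 over the libraries did not overlap that of Gabbr2, whereas Gabbr2 and Gabbr1 overlapped. Of the GABA-A receptor subunits, Gabrb2 had the highest level per kb, at 39.9 ± 2.30 CPM per kb, then Gabra3 at 28.7 ± 5.13, Gabra5 at 21.8 ± 6.36, Gabra4 at 15.9 ± 1.64 and Gabra2 at 10.1 ± 2.58 CPM per kb. Gabrd and Gabrb1 lay at 6.07 ± 2.13 and 5.91 ± 0.772 CPM per kb, and Gabrg1 and Gabrg3 at 3.66 ± 0.892 and 3.56 ± 0.664 CPM per kb. The theta subunit gene Gabrq reached 0.646 ± 0.678 CPM per kb and the epsilon subunit gene Gabre 0.0712 ± 0.0925 CPM per kb, with 0 to 27 reads of Gabre per library. The values of Gabra4 and Gabrb1 are uncertain where their exons overlap on opposite strands, since reads were counted without regard to strand.

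**Figure D1:**
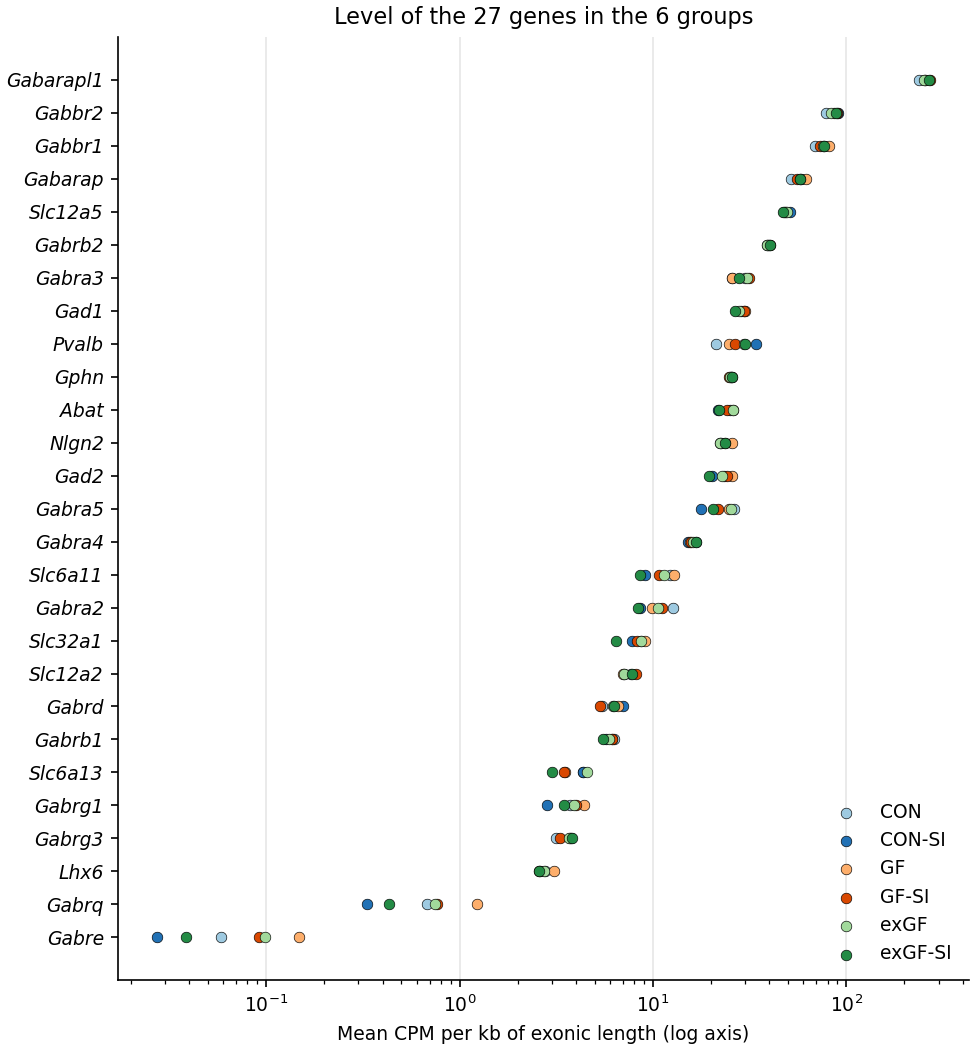
Mean level of each of the 27 genes in the 6 groups, in CPM per kb of exonic length on a log axis, with genes ordered by their mean over the 40 libraries. Each point is 1 group mean; the levels run from Gabre at 0.0712 CPM per kb to Gabarapl1 at 261 CPM per kb, and the 6 points of a gene lie close together except for Gabre and Gabrq.

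Genes of GABA synthesis and clearance lay in the middle of this range. Gad1 and Gad2, the isoforms of glutamic acid decarboxylase, stood at 28.7 ± 2.79 and 22.3 ± 4.59 CPM per kb, the transaminase gene Abat at 23.7 ± 2.84, the transporter genes Slc6a11 and Slc6a13 at 10.4 ± 2.56 and 3.75 ± 1.46, and the vesicular transporter gene Slc32a1 at 8.00 ± 1.88 CPM per kb. Gphn, which encodes the scaffold protein gephyrin, and Nlgn2, which encodes the adhesion protein neuroligin 2, were at 25.2 ± 1.84 and 23.2 ± 2.49 CPM per kb. The chloride importer gene Slc12a2 was at 7.60 ± 1.44 CPM per kb, Pvalb, which marks fast-spiking interneurons, at 28.4 ± 11.8, and Lhx6, a transcription factor gene of interneurons from the medial ganglionic eminence, at 2.67 ± 0.413 CPM per kb. The coefficient of variation over the 40 libraries was lowest for Gabrb2 at 5.77% and for Gphn at 7.30%, and highest for Gabre at 130%, Gabrq at 105% and Pvalb at 41.5%.

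Social interaction was compared with the naïve state within each colonisation group and as the mean of the 3 responses. In the mean response 5 of the 27 genes were lower and 1 was higher at an adjusted p of 0.1 or less, where 12.2% of all 16111 genes tested were lower, 14.4% were higher and 26.7% were called in all (edgeR quasi-likelihood test, Benjamini-Hochberg adjustment). The genes called lower were Slc6a11, Abat, Slc32a1, Gabra5 and Gabrq, and Gabarapl1 was called higher. The called share of the 27 genes thus lay near that of all genes. Their median log2 fold change was −0.03, against −0.01 over all genes. When the 5 ribosomal RNA-rich libraries were left out, 3 of the 27 were called, and when GF-P1 was left out as well, 0 of 27 were. That last fit, chosen after the values were seen, kept 2 CON, 3 GF and 2 exGF pools. The share of all genes called without these libraries is not given here. The lower counts therefore cannot be read as particular to the 27 genes.

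Within the separate groups fewer genes were called. In CON mice 1 of 26 genes tested was called lower after social interaction, against 1.37% of all genes called lower and 3.72% called in either direction. In exGF mice 2 of 26 were called lower, against 3.01% of all genes called lower and 7.61% called in either direction. In GF mice edgeR called 0 of 26, against 13.7% of all genes, with 1 of 26 at an unadjusted p under 0.05 against 24% of all genes, while DESeq2 called 1, Gabra3. Gabre did not pass the filter on low counts in these comparisons of 2 groups.

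**Figure D2:**
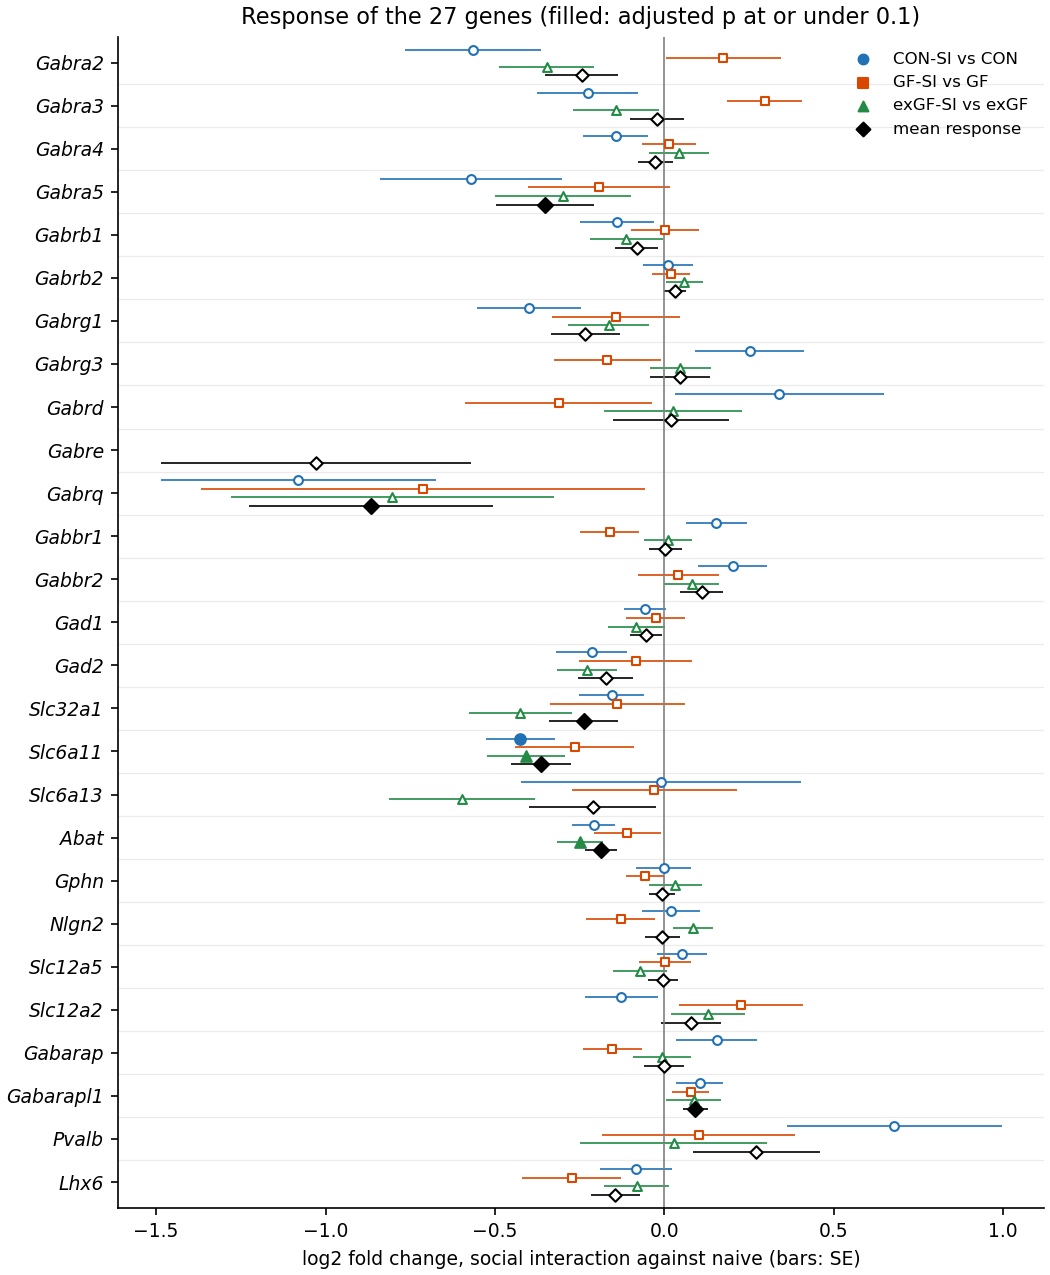
The log2 fold change after social interaction for each gene, with the standard error as a bar, in CON, GF and exGF mice and as the mean of the 3 responses. Filled symbols mark an adjusted p at or under 0.1: the mean response of Slc6a11, Abat, Slc32a1, Gabra5, Gabrq and Gabarapl1, and Slc6a11 in CON and exGF and Abat in exGF mice.

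The promoters of the genes called in the mean response are shown because these genes were called in the same contrast. A RefSeq promoter window on GRCm38.p6 was found for 24 of the 27 genes, with 34 windows among 32851 in all. Abat, Gabrd and Slc12a2 had no entry. The 250 bases upstream of the RefSeq start are given 5′ to 3′ for Slc6a11 (chr6:114130991-114131240, plus strand), Slc32a1 (chr2:158610508-158610757, plus strand), Gabra5 (chr7:57510060-57510309, minus strand), Gabrq (chrX:72824928-72825177, plus strand) and Gabarapl1 (chr6:129532942-129533191, plus strand), with the matches to any of 6 motifs in capitals.
Slc6a11: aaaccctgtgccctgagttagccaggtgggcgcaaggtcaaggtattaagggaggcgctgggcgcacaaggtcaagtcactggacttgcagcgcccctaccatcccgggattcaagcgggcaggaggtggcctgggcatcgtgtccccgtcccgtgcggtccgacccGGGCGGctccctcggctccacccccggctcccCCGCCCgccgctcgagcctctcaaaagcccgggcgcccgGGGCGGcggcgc
Slc32a1: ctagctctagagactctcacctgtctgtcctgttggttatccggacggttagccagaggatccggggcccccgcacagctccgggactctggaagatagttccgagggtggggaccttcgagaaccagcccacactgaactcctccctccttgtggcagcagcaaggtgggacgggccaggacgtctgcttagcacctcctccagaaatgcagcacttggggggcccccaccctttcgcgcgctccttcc
Gabra5: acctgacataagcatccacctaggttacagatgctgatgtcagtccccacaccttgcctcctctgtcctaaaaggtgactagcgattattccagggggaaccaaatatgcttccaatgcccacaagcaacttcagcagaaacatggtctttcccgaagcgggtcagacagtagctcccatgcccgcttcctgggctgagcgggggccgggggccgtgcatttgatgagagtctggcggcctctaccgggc
Gabrq: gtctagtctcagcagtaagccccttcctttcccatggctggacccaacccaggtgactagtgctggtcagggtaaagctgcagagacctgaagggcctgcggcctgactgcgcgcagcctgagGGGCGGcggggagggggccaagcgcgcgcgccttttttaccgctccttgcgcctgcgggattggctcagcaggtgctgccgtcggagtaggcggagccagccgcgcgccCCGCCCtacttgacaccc
Gabarapl1: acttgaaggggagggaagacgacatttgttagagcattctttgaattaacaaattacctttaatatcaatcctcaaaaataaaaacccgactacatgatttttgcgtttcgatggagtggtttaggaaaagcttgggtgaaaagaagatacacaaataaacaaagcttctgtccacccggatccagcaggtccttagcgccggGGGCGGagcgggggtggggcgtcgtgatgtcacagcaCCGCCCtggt

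The capitals are all GC boxes (GGGCGG on either strand, the letters bound by Sp1-type factors). Slc6a11 held 3, with first bases at −83, −51 and −12 from the start, Gabrq held 2, at −127 and −18, and Gabarapl1 held 2, at −47 and −10. No match to any of the 6 motifs lay in the windows of Slc32a1 and Gabra5. A GC box was in 32.7% of all windows and in 17 of the 34 windows of these genes, which belong to 16 of the 24 genes. The cyclic AMP response element TGACGTCA, which binds the activity-regulated factor CREB, was in 1.55% of all windows and in 0 of these 34. The AP-1 site TGANTCA was in 6.75% of all windows and in 2 of the 34, of Lhx6 and Slc12a5. The EGR site GCGNGGGCG was in 4.7% and in 1, of Gabrb2, the E-box CACGTG in 6.02% and in 1, of Slc12a5, and the TATA box TATAAA in 12.4% and in 4, of Gabra3, Gabrb2 and Gad1. EGR and GC box matches can overlap. The window of Slc6a11 was 71.2% G and C and that of Gabarapl1 46.8%, against a median of 52.4% over all windows.

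Slc6a11 (ENSMUSG00000030307, chr6:114131241-114249952, plus strand) encodes GAT3, the GABA transporter that is most abundant on astrocytes. In CON pools P1 to P4 its levels were 70.38, 53.25, 58.47 and 64.13 CPM. The 8 CON-SI libraries ran from 38.08 CPM in CON-S3 through a median of 44.7 to 55.22 CPM in CON-S7. Of the 8, 7 were below the lowest CON pool, so that the groups overlapped by 1 library. The log2 fold change was −0.42 ± 0.10 (SE), with an adjusted p of 0.0518 by edgeR.

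In exGF mice the Slc6a11 pools held 65.47, 61.57, 48.21 and 54.28 CPM. The exGF-SI libraries ran from 35.10 CPM in exGF-S10 through a median of 41.84 to 53.43 CPM in exGF-S7. Again the groups overlapped, with 6 of 8 libraries under the lowest pool, and the log2 fold change was −0.41 ± 0.12 with an adjusted p of 0.0665. The GF pools held 110.2, 52.52, 42.36 and 53.45 CPM, and the 12 GF-SI libraries ran from 42.08 through 54.34 to 66.93 CPM. Only 1 of the 12 was below the lowest GF pool, and the difference of −0.26 ± 0.18 did not pass the test (adjusted p = 0.378).

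Over the 3 groups the mean response of Slc6a11 was −0.36 ± 0.09 on the log2 scale (adjusted p = 0.00274), a level 0.777 of the naïve one. The high pools were partly those doubted above: GF-P1 had the highest Slc6a11 level of the 40 libraries, and the ribosomal RNA-rich CON-P1 and exGF-P1 had the highest levels of their groups. Without GF-P1 the mean response was −0.24 (adjusted p = 0.0162), without the 5 ribosomal RNA-rich libraries −0.31 (adjusted p = 0.0477), and without all 6 it was −0.18 and was not called (adjusted p = 0.134). The calls within CON and within exGF mice were also lost without the ribosomal RNA-rich libraries, at an adjusted p of 0.350 and 0.297. The call in CON was lost without CON-P1, CON-P3 or CON-P4 in turn, and the call in exGF without exGF-P1, exGF-P2, exGF-P4 or exGF-S10, with adjusted p of at most 0.174 and 0.20. The summed level of 10 astrocyte markers was 3873 to 5727 CPM in CON and 3661 to 4581 in CON-SI, 3617 to 4839 in GF and 3759 to 5384 in GF-SI, and 3742 to 4931 in exGF and 3228 to 4959 in exGF-SI libraries. Its part in the Slc6a11 difference was not tested.

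**Figure D3:**
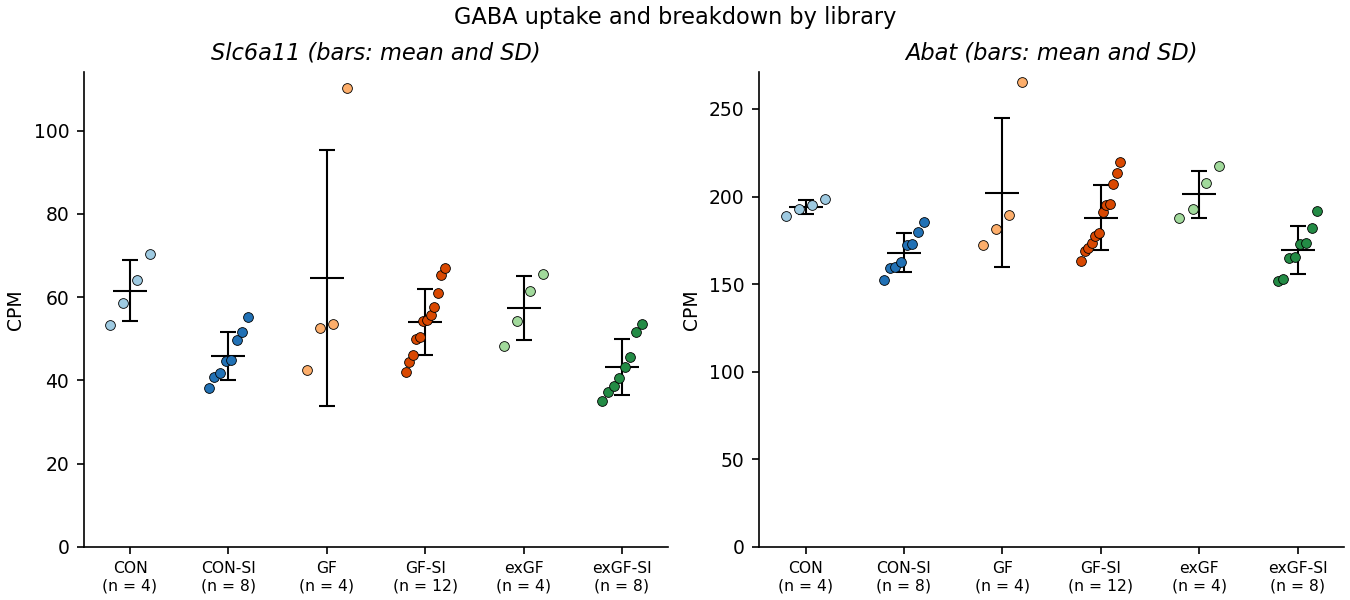
Levels of Slc6a11 and Abat in CPM in each of the 40 libraries by group (points), with the mean and SD of the group. All 8 CON-SI libraries lie below the 4 CON pools for Abat and 7 of 8 do for Slc6a11, and the GF pool P1 is the highest library for both genes.

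Abat (ENSMUSG00000057880, chr16:8513429-8621568, plus strand) encodes the mitochondrial GABA transaminase, the first enzyme of GABA breakdown. CON pools P1 to P4 held 192.6, 195.2, 198.6 and 189.0 CPM. The CON-SI libraries ran from 152.5 CPM in CON-S6 through a median of 167.3 to 185.2 CPM in CON-S10. These groups did not overlap, yet the log2 fold change of −0.21 ± 0.06 narrowly missed the threshold (adjusted p = 0.112), and DESeq2 called it (adjusted p = 0.0459).

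Abat was called in exGF mice. The exGF pools held 207.5, 217.2, 187.6 and 192.8 CPM. In the exGF-SI libraries it ran from 151.8 CPM in exGF-S4 through a median of 169.1 to 191.7 CPM in exGF-S7. Of the 8 libraries, 7 were under the lowest pool, and the log2 fold change was −0.25 ± 0.07 (adjusted p = 0.0621). The call was lost without the ribosomal RNA-rich libraries (adjusted p = 0.295), without a filter on low counts, and without exGF-P1, exGF-P2, exGF-P4 or exGF-S10 in turn (adjusted p up to 0.210).

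The GF pools held 265.3, 189.7, 181.4 and 172.5 CPM of Abat and the GF-SI libraries 163.3 to 219.7 CPM with a median of 185.1, and GF-P1 was again the highest of the 40. The difference in GF mice was −0.11 ± 0.10 (adjusted p = 0.543). The mean response was −0.19 ± 0.05 (adjusted p = 0.00442), a level 0.878 of the naïve one. It was called in each of 40 fits that left out 1 library, with log2 fold changes from −0.21 to −0.13, as was Slc6a11, from −0.42 to −0.24. Without the ribosomal RNA-rich libraries and GF-P1 together it was −0.11 and was not called (adjusted p = 0.122).

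The remaining clearance gene, Slc6a13, encodes GAT2, a transporter of the meninges and of blood vessels. It stood at 12.6 ± 4.15 CPM (SD, n = 4) in CON, 10.2 ± 1.38 (n = 4) in GF and 13.3 ± 4.03 CPM (n = 4) in exGF pools, and at 12.6 ± 6.76 (n = 8), 10.1 ± 3.51 (n = 12) and 8.72 ± 2.22 CPM (n = 8) after social interaction. The exGF difference of −0.60 ± 0.22 missed the threshold (edgeR adjusted p = 0.131, DESeq2 0.0708). The lowest library, CON-S3 at 1.934 CPM, also had the lowest summed level of meningeal and vessel markers (96.11 CPM), and the highest, CON-S12 at 25.05 CPM, had the highest such sum (424.2 CPM). The part of these markers in the Slc6a13 values was not tested.

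Among the genes of synthesis and loading, Slc32a1 (ENSMUSG00000037771, chr2:158610767-158615748, plus strand), which encodes the vesicular inhibitory amino acid transporter VGAT, fell in the mean response. Its levels were 24.12, 24.38, 22.40 and 26.53 CPM in CON pools, 41.90, 19.25, 17.84 and 22.95 CPM in GF pools and 25.86, 26.96, 22.95 and 21.64 CPM in exGF pools. After social interaction they ran from 17.81 through 22.04 to 24.59 CPM in CON, from 13.24 through 22.55 to 31.57 CPM in GF, and from 13.96 through 17.45 to 23.61 CPM in exGF mice. The groups overlapped in each case, with 4 of 8 libraries from CON-SI mice under the lowest pool of their kind, 1 of 12 from GF-SI mice and 6 of 8 from exGF-SI mice. The mean response of −0.24 ± 0.10 was just past the threshold (adjusted p = 0.0948). It became −0.12 without GF-P1 (adjusted p = 0.388), which held the highest level of the 40 libraries, and the call was lost in 21 of 40 fits that left out 1 library. These libraries were CON-P1, P2, P4, S3, S5, S10 and S11, GF-P1, S3, S4, S6, S9, S11 and S12, and exGF-P1, P2, P3, S4, S6, S9 and S10. Without the ribosomal RNA-rich libraries it was −0.24 and not called (adjusted p = 0.194), and without these and GF-P1 it was −0.12 (adjusted p = 0.485). In exGF mice alone the difference was −0.42 ± 0.15 (edgeR adjusted p = 0.130, DESeq2 0.0845).

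Neither decarboxylase gene was called. Gad1, which encodes the larger form found through the cell body, stood at 227 ± 12.2 CPM in CON and 218 ± 11.4 in CON-SI, 230 ± 23.5 in GF and 226 ± 24.4 in GF-SI, and 214 ± 18.3 in exGF and 202 ± 22.1 CPM in exGF-SI libraries (SD, n = 4 for pools and 8, 12 and 8 after social interaction). Its mean response was −0.05 ± 0.05 (adjusted p = 0.452). Gad2, whose product is held at nerve terminals, stood at 138 ± 20.4 and 119 ± 14.7 CPM in CON and CON-SI, 150 ± 52.2 and 142 ± 29.1 in GF and GF-SI, and 134 ± 9.59 and 114 ± 14.3 CPM in exGF and exGF-SI libraries. The mean response of Gad2 was −0.17 ± 0.08 (adjusted p = 0.136). Both genes, and the transporter Slc32a1, were highest in GF-P1, at 264.1, 227.0 and 41.90 CPM.

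Of the GABA-A receptor subunit genes, Gabra5 and Gabrq were called lower in the mean response. Gabra5 (ENSMUSG00000055078, chr7:57407672-57510059, minus strand), whose product forms largely extrasynaptic receptors that carry tonic inhibition, held 90.72, 92.71, 57.39 and 71.93 CPM in CON pools, 52.79, 88.61, 65.27 and 86.59 in GF pools and 67.67, 77.31, 67.84 and 87.31 CPM in exGF pools. After social interaction it ran from 28.68 through 58.41 to 77.35 CPM in CON, from 36.90 through 66.49 to 108.2 CPM in GF and from 29.57 through 65.28 to 81.93 CPM in exGF mice. Naïve and social interaction groups overlapped in all 3 kinds of mice, and a few low libraries, CON-S3, CON-S11, CON-S10 and exGF-S8 lay at 28.68 to 30.53 CPM against 36.90 CPM or more in the other 36. The mean response was −0.35 ± 0.14 (adjusted p = 0.0807). It was lost without the ribosomal RNA-rich libraries (−0.40, adjusted p = 0.131), and when CON-P1, CON-P2, CON-S3, CON-S10, CON-S11, GF-P2, GF-P4, exGF-P2, exGF-P4, exGF-S4 or exGF-S8 was left out (adjusted p up to 0.151). Without the ribosomal RNA-rich libraries and GF-P1 together it was −0.44 (adjusted p = 0.103). An antisense gene, Gm9962, overlaps Gabra5 with a count that was 2.45% of that of Gabra5, and reads of the pair cannot be told apart without strand.

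Gabrq (ENSMUSG00000031344, chrX:72825178-72842602, plus strand) encodes the theta subunit, found in few brain regions, among them hypothalamus and parts of the amygdala. It held 1.62, 4.04, 2.34 and 6.53 CPM in CON pools, 17.86, 2.83, 4.32 and 1.44 CPM in GF pools and 2.53, 1.85, 9.09 and 2.49 CPM in exGF pools. After social interaction it ran from 0.334 through 1.75 to 3.22 CPM in CON, from 0.934 through 2.60 to 14.25 CPM in GF and from 0.788 through 1.86 to 5.77 CPM in exGF mice. The levels overlapped in each kind of mouse, and GF-P1, GF-S5, GF-S7 and exGF-P3 exceeded 9 CPM, where no other library exceeded 6.53 CPM. The mean response was −0.87 ± 0.36 (adjusted p = 0.0836). It became −0.45 without GF-P1 (adjusted p = 0.413) and −0.59 without exGF-P3 (adjusted p = 0.291), and was lost too without CON-P2, CON-P4, CON-S3, CON-S10, exGF-S8, exGF-S9 or exGF-S10. Without the ribosomal RNA-rich libraries it was −1.18 and called (adjusted p = 0.0528), and without these and GF-P1 it was −0.76 and not called (adjusted p = 0.220). Gabre, which lies on the X chromosome as do Gabrq and Gabra3, was high in the same 4 libraries, at 1.76 CPM in GF-P1, 1.77 in GF-S5, 1.63 in GF-S7 and 1.08 in exGF-P3, and at no more than 0.509 CPM in the other 36. Its mean response of −1.03 ± 0.46 was not called by edgeR (adjusted p = 0.109) and was called by DESeq2 (adjusted p = 0.0919).

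**Figure D4:**
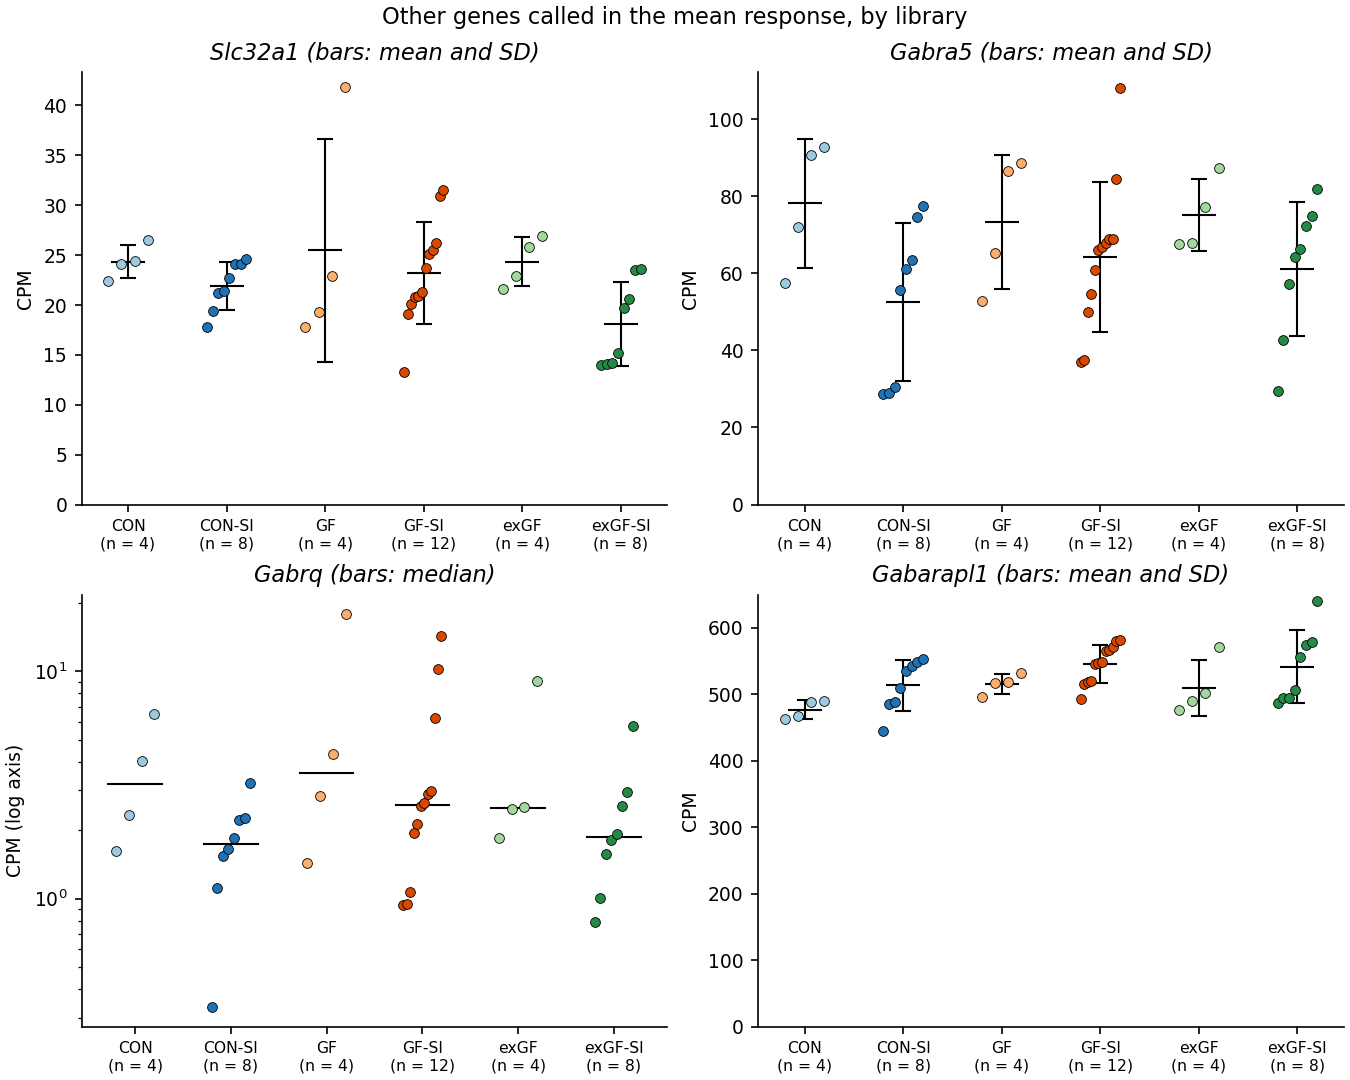
Levels in CPM of Slc32a1, Gabra5, Gabrq and Gabarapl1 in each of the 40 libraries by group, with the mean and SD (Slc32a1, Gabra5, Gabarapl1) or the median (Gabrq, log axis). The naïve and social interaction groups overlap for all 4 genes, and GF-P1 at 41.90 CPM of Slc32a1 and 17.86 CPM of Gabrq is the highest library for both.

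The other alpha subunit genes differed in direction between kinds of mice without a call in the main edgeR fits. Gabra2, which encodes a subunit of synapses on the cell body and axon, stood at 97.1 ± 9.73 CPM in CON and 65.6 ± 22.1 in CON-SI, 75.7 ± 10.8 in GF and 85.6 ± 20.2 in GF-SI, and 81.0 ± 1.37 in exGF and 63.7 ± 14.9 CPM in exGF-SI libraries. The log2 fold changes were −0.57 ± 0.20 in CON (adjusted p = 0.173), 0.17 ± 0.17 in GF (adjusted p = 0.579) and −0.35 ± 0.14 in exGF mice (adjusted p = 0.174). The mean response of Gabra2 was −0.24 ± 0.11 and fell just outside the threshold (edgeR adjusted p = 0.108, DESeq2 0.104). In CON mice 7 of 8 CON-SI libraries lay below the lowest pool, and CON-S2, at 110.3 CPM, lay above the highest. The CON difference was called in 1 fit over the 6 groups and without CON-S2 (edgeR adjusted p down to 0.0281). That in exGF was called with a correction for GC content and length and without exGF-S5 (edgeR adjusted p down to 0.0405). The response in GF minus that in CON was 0.74 ± 0.27 (adjusted p = 0.171). This difference between the responses was called only without CON-S2 (edgeR adjusted p = 0.0829). Gabra3 showed the same order, with 117 ± 18.1 and 100 ± 22.2 CPM in CON and CON-SI, 100.1 ± 3.65 and 123 ± 19.8 in GF and GF-SI, and 121 ± 12.0 and 109 ± 20.5 CPM in exGF and exGF-SI libraries. Its response in GF mice was 0.30 ± 0.11 (edgeR adjusted p = 0.105, DESeq2 0.0666), and the response in GF minus that in CON was 0.52 ± 0.19 (adjusted p = 0.181). The latter was called only without CON-S7 (edgeR adjusted p = 0.0831). Gabra4, a partner of the delta subunit in forebrain, varied between 77.61 and 123.7 CPM over the 40 libraries.

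The beta subunit genes moved little. Gabrb2 stood between 222.2 and 286.3 CPM in all libraries, with a mean response of 0.03 ± 0.03 (adjusted p = 0.524), and Gabrb1 between 55.62 and 102.8 CPM. Gabrg1, a gamma subunit gene of amygdala and some other regions, stood at 29.3 ± 2.95 and 22.2 ± 4.70 CPM in CON and CON-SI, 34.6 ± 4.02 and 31.4 ± 9.24 in GF and GF-SI, and 30.6 ± 4.16 and 27.3 ± 3.95 CPM in exGF and exGF-SI libraries. Its mean response of −0.23 ± 0.10 fell just outside the threshold (edgeR adjusted p = 0.101, DESeq2 0.0989). Gabrg3 ranged from 28.11 to 61.03 CPM and Gabrd, which encodes the delta subunit of extrasynaptic receptors, from 6.59 to 32.94 CPM, and neither was called in any comparison.

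Gabarapl1 (ENSMUSG00000030161, chr6:129533160-129542346, plus strand) was the only one of the 27 genes called higher in the mean response, which was positive in 8. Its levels were 467.1, 490.6, 462.2 and 488.5 CPM in CON pools, 495.5, 519.2, 531.9 and 517.7 in GF pools and 476.1, 490.3, 571.1 and 502.0 CPM in exGF pools. After social interaction they ran from 444.5 through 522.4 to 553.6 CPM in CON, from 492.8 through 548.0 to 581.8 CPM in GF and from 487.1 through 531.9 to 640.4 CPM in exGF mice. The groups overlapped, with 5 of 8, 8 of 12 and 3 of 8 libraries above the highest pool of their kind. The mean response was 0.09 ± 0.04 (adjusted p = 0.0791), a level 1.07 times the naïve one. It was 0.05 without the ribosomal RNA-rich libraries (adjusted p = 0.512) and 0.04 without these and GF-P1 (adjusted p = 0.601), and the call was lost in 13 of 40 fits that left out 1 library, namely CON-P1, P3, S2, S7 or S10, GF-P1 or P2, or exGF-P1, P2, P4, S7, S8 or S9 (adjusted p up to 0.148). Its relative Gabarap, whose product binds the receptor and gephyrin, ranged from 66.96 CPM in CON-P1, the library richest in ribosomal RNA, to 132.7 CPM in exGF-S9 and was not called.

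No call was made for the GABA-B receptor, scaffold, chloride or interneuron genes after social interaction. Gabbr1 averaged 536 ± 43.3 CPM in CON and 597 ± 63.2 in CON-SI, 636 ± 91.5 in GF and 570 ± 55.8 in GF-SI, and 592 ± 43.1 in exGF and 596 ± 42.9 CPM in exGF-SI libraries. Gabbr2 had a mean response of 0.11 ± 0.06 (adjusted p = 0.221). Gphn ranged from 79.02 to 109.7 CPM, Nlgn2 from 107.3 to 183.7, Slc12a5 from 294.0 to 434.7 and Slc12a2 from 52.18 to 129.4 CPM. Pvalb stood at 22.1 ± 4.91 and 35.5 ± 16.8 CPM in CON and CON-SI, 25.8 ± 2.09 and 27.6 ± 12.4 in GF and GF-SI, and 30.8 ± 6.76 and 31.3 ± 13.8 CPM in exGF and exGF-SI libraries. The spread of Pvalb was wider after social interaction in all 3 kinds of mice, where libraries are single animals, than among the pools. Lhx6 lay between 9.50 and 21.18 CPM, highest in GF-P1.

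Naïve mice of the 3 kinds were compared next, to ask whether colonisation sets the level of these genes at rest. Of 26 genes tested edgeR and DESeq2 called 0 in each comparison. For GF against CON 3 genes had an unadjusted p under 0.05 (11% of all genes did, and 0.142% were called), namely Gabra2 at −0.36 ± 0.11 (adjusted p = 0.32), Nlgn2 at 0.21 ± 0.08 (adjusted p = 0.411) and Gabbr1 at 0.25 ± 0.11 (adjusted p = 0.440). For exGF against CON 2 did (5.43% of all genes, 0.104% called), Gabra2 at −0.26 ± 0.08 (adjusted p = 0.624) and Pvalb at 0.47 ± 0.18 (adjusted p = 0.837). For exGF against GF 2 did (9.42% of all genes, 0% called), Gabra3 at 0.26 ± 0.08 (adjusted p = 0.433) and Nlgn2 at −0.21 ± 0.07 (adjusted p = 0.452). Comparisons of pairs share the pools of a group.

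After social interaction edgeR again called 0 of 26 in each comparison of kinds of mice. For GF-SI against CON-SI 7 genes had an unadjusted p under 0.05, where 16.5% of all genes did and 1.1% were called. They were Gabra2, Gabra3, Gabrg1, Gabrq, Gad2, Slc6a11 and Abat, all with the higher mean in GF-SI. GF-S5 and GF-S7, singled out below, were the highest GF-SI libraries for Gabra3, Gabrg1, Gabrq, Gad2, Slc6a11 and Abat, and among the highest for Gabra2. No fit left out both libraries, and their joint part in these differences was not tested. Slc6a11 stood at 54.0 ± 7.87 CPM in GF-SI (n = 12) and 45.8 ± 5.83 in CON-SI (n = 8), a log2 difference of 0.23 ± 0.09 (adjusted p = 0.20), and Abat at 188 ± 18.6 and 168 ± 11.3 CPM, a difference of 0.16 ± 0.06 (adjusted p = 0.202). DESeq2 called 1 gene, Gabrg1, at 0.50 (adjusted p = 0.0800), for which edgeR gave 0.49 ± 0.16 (adjusted p = 0.171). The DESeq2 call and the direction rest on overlapping groups, 20.31 to 49.06 CPM in GF-SI and 13.27 to 27.72 CPM in CON-SI.

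For exGF-SI against GF-SI 6 genes had an unadjusted p under 0.05 (12.9% of all genes, 0.0995% called), and the mean of each was lower in exGF-SI: Gabra2, Gad1, Gad2, Slc32a1, Slc6a11 and Abat. GF-S5 and GF-S7 were the highest GF-SI libraries for Gad2, Slc32a1, Slc6a11 and Abat, and their joint part was not tested. Slc6a11 differed by −0.32 ± 0.09 (edgeR adjusted p = 0.179, DESeq2 0.0669). Slc32a1 differed by −0.36 ± 0.14 (adjusted p = 0.274) and Gad2 by −0.31 ± 0.10 (adjusted p = 0.223). For exGF-SI against CON-SI 2 genes had an unadjusted p under 0.05 (13.5% of all genes, 1.31% called), Gabrg1 at 0.29 ± 0.13 (adjusted p = 0.326) and Slc32a1 at −0.28 ± 0.12 (adjusted p = 0.32), and DESeq2 called 0. These comparisons use the GF-SI and CON-SI libraries more than once.

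Differences between the responses were tested directly in a fit over all 6 groups, and edgeR and DESeq2 called 0 of 27 in each. For GF minus CON 4 genes had an unadjusted p under 0.05 (15.8% of all genes, 0.0931% called): Gabra2 and Gabra3, given above, Gabbr1 at −0.31 ± 0.12 (adjusted p = 0.192) and Gabarap at −0.30 ± 0.14 (adjusted p = 0.285). For exGF minus GF only Gabra3 did, at −0.44 ± 0.19 (adjusted p = 0.362, with 11.4% of all genes under 0.05 and 0% called). For exGF minus CON none did, at 0 of 27, against 5.83% of all genes with 0% called. For Slc6a11 the response in GF minus that in CON was 0.16 ± 0.22 (adjusted p = 0.769), so the absence of a call in GF mice does not show that their response differed.

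Other genes of the GABA system and the inhibitory synapse were read from a list of 40. Of these, 35 were tested in the mean response. There 5 were called higher and 3 lower, against 14.4% of all genes called higher and 12.2% lower. The median log2 fold change was −0.0013, against −0.01 over all genes. Trak1, an adaptor of mitochondrial and receptor transport, rose by 0.28 ± 0.04 (adjusted p = 1.12e-05), and Glul, the glutamine synthetase of astrocytes, by 0.28 ± 0.06 (adjusted p = 0.00133). Slitrk3, an adhesion gene of inhibitory synapses, fell by 0.23 ± 0.05 (adjusted p = 0.000616) and Aldh9a1, an enzyme that can form GABA from putrescine, by 0.25 ± 0.08 (adjusted p = 0.0314). In CON mice 1 of 34 was called, Glul, which rose by 0.48 ± 0.10 (adjusted p = 0.0325), against 3.72% of all genes called. In GF mice 2 of 35 were called, both higher, Trak1 and Trak2, against 13.7% of all genes. In exGF mice 3 of 34 were called, with Trak1 higher and Nsf and Dbi lower, against 7.61% of all genes. Of 25 tested markers of inhibitory neuron subtypes 6 were called lower and 1 higher in the mean response. The shares of all genes were the same 12.2% and 14.4%, and the median of the markers was −0.09. Vip rose by 0.39 ± 0.09 (adjusted p = 0.00173), while Prox1, Dlx2 and Sst were lower, at −0.41 ± 0.10, −0.46 ± 0.13 and −0.26 ± 0.08 (adjusted p = 0.00271, 0.0126 and 0.0202). Mean levels of Sst were 79.19 and 66.15 CPM in CON and CON-SI, 66.44 and 66.69 in GF and GF-SI, and 78.64 and 54.28 CPM in exGF and exGF-SI. The calls of these lists come from fits that kept the libraries doubted above, and fits without them are not given.

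The 27 genes also varied between libraries of the same group in sets that recurred. In GF-P1, the pool rich in striatal markers, Gad1, Gad2, Slc32a1, Slc6a11, Abat, Gabrq and Lhx6 had their highest level of the 40 libraries, and Gabra4, Gabra5 and Gabra2 were the lowest of the 4 GF pools. GF-S5 and GF-S7 came next for Gad2, at 209.5 and 188.2 CPM against at most 165.2 CPM in the other 37, and were the lowest 2 libraries for Pvalb, at 13.66 and 13.38 CPM. They also held the most Gabrg1, at 48.10 and 49.06 CPM. Their summed levels of amygdala nucleus markers, 1055 and 1103 CPM, were the highest 2 of the 40.

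Another set of libraries ran the other way. CON-S10, exGF-S8, CON-S3 and GF-S2 held 63.98, 60.41, 57.63 and 57.11 CPM of Pvalb, where no other library exceeded 37.34 CPM. Each of the 4 had more than 27 CPM of Gabrd, as did CON-S11 at 27.96 CPM. The same 4 libraries were the lowest of the 40 for Gabrg1, at 13.27 to 20.31 CPM, and among the lowest 5 for Gabra5. Their summed levels of 10 oligodendrocyte markers were 3101 CPM in CON-S10, 3433 in exGF-S8, 3708 in CON-S3 and 5468 CPM in GF-S2, against a range of 984.1 to 3194 CPM in the other 36. These 4 libraries came from all 3 kinds of mice after social interaction, and the part of the marker levels in the values of the 27 genes was not tested.

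**Figure D5:**
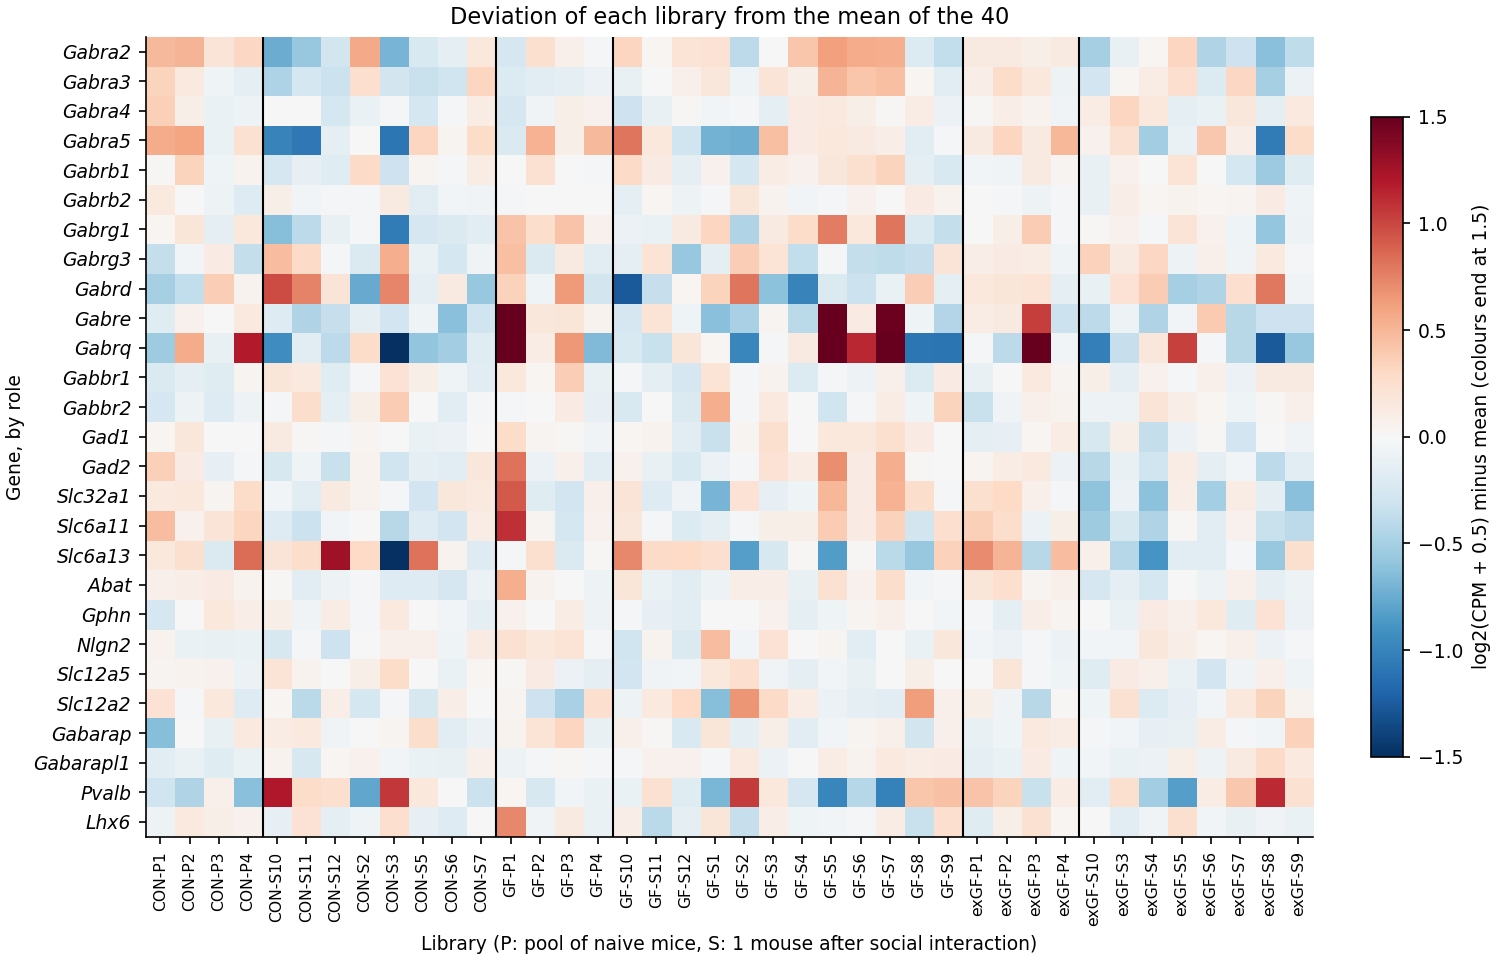
Deviation of each library (columns, by group) from the mean of the 40 libraries for each of the 27 genes (rows, by role), as log2(CPM + 0.5) minus the mean, with red above and blue below it. GF-P1, GF-S5 and GF-S7 stand out in red for Gad2, Slc32a1, Gabre and Gabrq, and CON-S10, CON-S3, GF-S2 and exGF-S8 in red for Pvalb and Gabrd and in blue for Gabra5 and Gabrg1.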

How the data were processed

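The authors trimmed stranded, ribodepleted paired-end reads with Trimmomatic (0.32), aligned them to GRCm38 with STAR (2.4.0f1) and counted them per gene, ignoring strand, with HTSeq (0.6.0). The deposited table holds these raw counts for 43629 genes (42462 with a symbol) in 40 libraries. Group names in the column headers set the groups, and no column went unused. Counts were tested with edgeR (4.0.16 in R 4.3.3): TMM scaling, filterByExpr, quasi-likelihood F-tests and Benjamini-Hochberg adjustment over all genes tested, with calls at 0.1. Pairs of groups were fitted alone. Mean responses and their differences came from 1 fit over the 6 groups. CPM used TMM-scaled totals, and exonic lengths came from GENCODE vM21. The edgeR fits of GF-SI against GF, of GF against CON and of the mean response were first tested on simulated data, and the other fits were not. DESeq2 (1.42.0), other scaling, no filter, a GC and length correction and left-out libraries were the alternatives. The genes and lists were chosen with earlier results of these data known. All 27 genes are named, with library values for called genes. Of the other lists, up to 4 genes with the smallest p in a comparison are named, and libraries and genes singled out beyond this were chosen after their values were seen. Nothing but the group separates pools or animals in the labels, so p-values measure the spread between these libraries. Where a fit held pools and single animals, 1 estimate of the spread per gene covered both. No libraries were identical (0 pairs), and any 2 libraries of a group differed by a chi-square of at least 7.21 for each degree of freedom, well over sampling noise.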

Additional observations from a re-analysis of the deposited data

Results flagged for a closer look

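In 15 of 135 groups of 4 or 8 libraries tested, 1 library lay further from its nearest neighbour than Dixon's 95% criterion allows. For independent values from a normal distribution the criterion would flag about 1 in 20 groups. The genes share the same libraries and CPM values need not be normal, so an excess over that rate was not tested. Among the naïve pools the flagged values were Gabre at 1.76 CPM and Slc6a11 at 110.2 CPM in GF-P1 (other GF pools up to 0.376 and 53.45 CPM), Gabrb1 at 95.44 CPM in GF-P2, Gad1 at 244.8 CPM in CON-P2 and Nlgn2 at 138.4 CPM in CON-P1. In exGF pools they were Gabrq at 9.087 CPM and Gabra2 at 78.93 CPM in exGF-P3, and Gabrg3 at 40.06 CPM and Gabrd at 14.84 CPM in exGF-P4. The Gabra2 value differed from the nearest exGF pool, at 81.47 CPM, by little, since the other 3 lay within 81.47 to 81.92 CPM. Among exGF-SI libraries they were Gabrg1 at 18.60 CPM and Pvalb at 60.41 CPM in exGF-S8, Gabrq at 5.772 CPM and Lhx6 at 15.11 CPM in exGF-S5, Gabre at 0.5093 CPM in exGF-S6 and Gabarap at 132.7 CPM in exGF-S9. The group of 12 GF-SI libraries was not tested in this way.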

How the results depend on the processing

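No called gene reversed its direction in any alternative run. Of the 27 genes, the number called moved as follows. Without the libraries rich in ribosomal RNA it was 0 in CON (1 in the result given), 0 in exGF (2), 1 for exGF-SI against GF-SI (0) and 3 in the mean response (6). With GF-P1 left out as well, a choice made after seeing the data, it was 0 in the mean response. With no filter on low counts it was 1 in exGF and 2 in the mean response, with RLE scaling 1 in GF, and in 1 fit over the 6 groups 1 in exGF and 1 for GF-SI against CON-SI. DESeq2 called 2 in CON, 1 in GF, 4 in exGF, 1 for GF-SI against CON-SI, 1 for exGF-SI against GF-SI and 8 in the mean response. The single calls of Slc6a11 in CON and exGF were lost in 1 fit over the 6 groups, that in exGF and the mean response of Slc32a1 also with the GC and length correction, and the mean responses of Gabra5, Gabrq, Slc32a1 and Gabarapl1 with no filter. In 1 fit over the 6 groups Gabra2 was called in CON, where Slc6a11 was lost. The GC and length correction also added calls, Gabra2 and Gabrg1 in exGF (3 in all) and Gabra2, Gabrg1, Gad2 and Gabrb1 in the mean response (9 in all), and RLE scaling added Gabrg1 there (7 in all). Leaving out each library in turn gave 0 to 3 in CON (0 without CON-P1, CON-P3 or CON-P4), 0 to 1 in GF, 0 to 5 in exGF (0 without exGF-P1, exGF-P2, exGF-P4 or exGF-S10), 0 to 1 for GF-SI against CON-SI, 0 to 2 for exGF-SI against GF-SI, 0 to 1 for the response in GF minus that in CON, 2 to 9 in the mean response (2 without CON-S10, 3 without CON-P1, CON-P2, CON-S3, exGF-P2, exGF-S8 or exGF-S9) and 0 throughout in the other 6 comparisons. Where naïve libraries were dropped, fewer samples remained, and the cause was otherwise not tested. The share of all genes called in each alternative fit, DESeq2 included, is not given here. These counts therefore cannot show whether a change was particular to the 27 genes. With a replicate block by pool number 0 were called in all 3 naïve comparisons. Same-numbered pools correlated at −0.112 to 0.223. Pools with different numbers were not compared, so these values cannot decide whether the numbers pair the pools. With 0 to 27 reads of Gabre per library, small differences of this gene were not detectable at this depth.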
